A study of Mus musculus with 12 samples.

Results

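The DNA replication machinery is described here as a list of 53 genes chosen by symbol, out of the 25093 genes in the count table, in mouse satellite cells with and without *Gli3*. The list holds the genes that load, fire and copy replication origins, together with those that supply nucleotides and drive entry into S phase. All 53 symbols were found in the table, each on 1 row. The mice were tamoxifen-treated *Pax7*-CreERT2/+;*Gli3*+/+;*R26R*-YFP controls (hereafter *Gli3*+/+) and tamoxifen-treated *Pax7*-CreERT2/+;*Gli3*fl/fl;*R26R*-YFP animals (hereafter *Gli3* Δ/Δ), 3 to 4 months old. The Cre recombinase is expressed from the *Pax7* locus, so both groups carry it, both carry the YFP reporter and both received tamoxifen. Quiescent satellite cells (QSCs) were sorted from uninjured hindlimb muscle as α7-integrin+, CD34+ cells that lack CD31, CD45, SCA1 and CD11b, with several mice pooled in each library. Tissue dissociation is known to start an early response in such cells, so QSC here names their source and not a fully resting state. Activated satellite cells (ASCs) came from muscle injured with cardiotoxin 3 days earlier, 1 mouse in each library, were sorted on VCAM1 in place of CD34 with the same markers gated against, and include both proliferating stem cells and their progenitors. There were 3 libraries in each of 4 groups. The 6 QSC libraries held 39556784, 65340069 and 47007056 estimated counts in *Gli3*+/+ and 51913963, 65750131 and 50417695 in *Gli3* Δ/Δ mice. The counts of the 6 ASC libraries could not be tied to a genotype by their names and were not used. The ASCs therefore enter only through the authors' deposited mean over all libraries.

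A cell that divides must copy its genome once and only once. The origin recognition complex (ORC) marks the start sites, CDC6 and CDT1 load the MCM helicase onto them while geminin restrains CDT1, and the kinases CDC7 with DBF4 and CDK2 with cyclin E then convert the helicase, with CDC45 and the GINS complex, into a moving fork. Polymerases, the sliding clamp PCNA and its loader, the single-strand binding protein RPA and the nucleotide-making enzymes do the copying, and many of these genes are classical targets of the E2F transcription factors. Satellite cells, the stem cells of skeletal muscle, rest outside the cell cycle until injury, and exit from the cycle is known to be accompanied by loss of several licensing proteins.

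The libraries were first checked against their labels. Satellite cell markers were abundant in every QSC library. *Pax7*, the transcription factor that defines these cells, stood at 1052, 884 and 1036 CPM (the usual unit of counts scaled to a common library size, here with edgeR's TMM factors) in *Gli3*+/+ and at 945, 1157 and 798 CPM in *Gli3* Δ/Δ QSCs. *Gli3* itself was at 11.2, 9.71 and 9.75 CPM against 9.54, 10.5 and 6.25 CPM, and its groups overlapped. The fold change of *Gli3* was -0.22 on the log2 scale (SE 0.22), and edgeR gave it an adjusted p of 0.916 in its quasi-likelihood test. It was -0.028 without *Gli3* Δ/Δ replicate 3 and -0.37 without *Gli3* Δ/Δ replicate 2. The floxed allele loses 1 exon, which a count summed over the whole gene does not separate, so this value does not check the deletion. The paper reports efficient excision in QSCs from RT-qPCR. Its sequencing gave significantly lower *Gli3* in *Gli3* Δ/Δ than in *Gli3*+/+ ASCs. Transcripts of the dissociation response were high throughout, with *Egr1* at 7416 to 10300 CPM. Per kb of exon, *Fos* at 3085 and *Hspa1b* at 3017 CPM per kb were the highest of that list.

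Among these genes *Gli3*+/+ replicate 1 most often held the highest value and *Gli3*+/+ replicate 3 the lowest. Such counts were not made over all genes, so a trait of the whole library is not separated from one of these genes. Replicate 3 had the lowest value for 20 of the 53 and a TMM factor of 0.917, against 1.008 to 1.033 in the other 5 libraries. *Gli3*+/+ replicate 1 had the highest value of the 6 QSC libraries for 18 of the 53 replication genes, and for 9 of 10 cycling cell markers. *Mki67*, the proliferation antigen, was at 8.84 CPM there against 0.993 and 2.76 CPM in the other *Gli3*+/+ libraries and 6.51, 4.46 and 3.42 CPM in *Gli3* Δ/Δ libraries. The summed level of the 10 cycling markers was 36.9 CPM in that library, 7.22 and 10.3 CPM in the other *Gli3*+/+ libraries, and 21.9, 13.7 and 11.7 CPM in *Gli3* Δ/Δ libraries. Replicate 1 was also highest for 6 of 8 macrophage markers, with a summed level of 28.9 CPM against 10.4 to 17.7 CPM elsewhere. *Lyz2* was the most abundant of them there, per kb of exon as well, at 13.0 CPM, and *Ptprc*, which defines leukocytes and was gated against, reached 2.11 CPM. It was highest too for 4 of 4 neutrophil and 5 of 5 erythroid markers. The part of these cells in the levels below was not tested. Where leaving out replicate 1 or replicate 3 of *Gli3*+/+ moved the mean or log2 fold change of a gene given below by over 1.5 times, the value without it follows.

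Most of the replication machinery was transcribed in quiescent cells, but not evenly. As means over the 6 QSC libraries, 26 of the 53 genes were at 10 CPM or more, 20 lay from 1 to under 10 CPM, and 7 were below 1 CPM. All 53 genes together took 1003, 953 and 957 CPM in *Gli3*+/+ and 958, 905 and 962 CPM in *Gli3* Δ/Δ libraries. These sums were 971 ± 28.0 and 942 ± 32.0 CPM (SD, n = 3 libraries each), and the groups overlapped. These classes of CPM, and the 8 genes of lowest CPM named below, are not corrected for the length of the gene. Genes are put in order after division by their exonic length, in CPM per kb. On that scale the clamp gene *Pcna* at 23.3 and the ORC gene *Orc6* at 23.2 CPM per kb were highest, followed by *Mcm7* at 15.7 and the polymerase delta subunit gene *Pold2* at 14.2 CPM per kb. The lowest were *Orc1* at 0.050, *Mcm10* at 0.058 and *Cdc6* at 0.159 CPM per kb. The highest level was 470 times the lowest. Of the 52 pairs of neighbours in this order, only *Dbf4* and *Ccne2* were separated in all 6 libraries, so the order is read in broad steps.

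**Figure D1:**
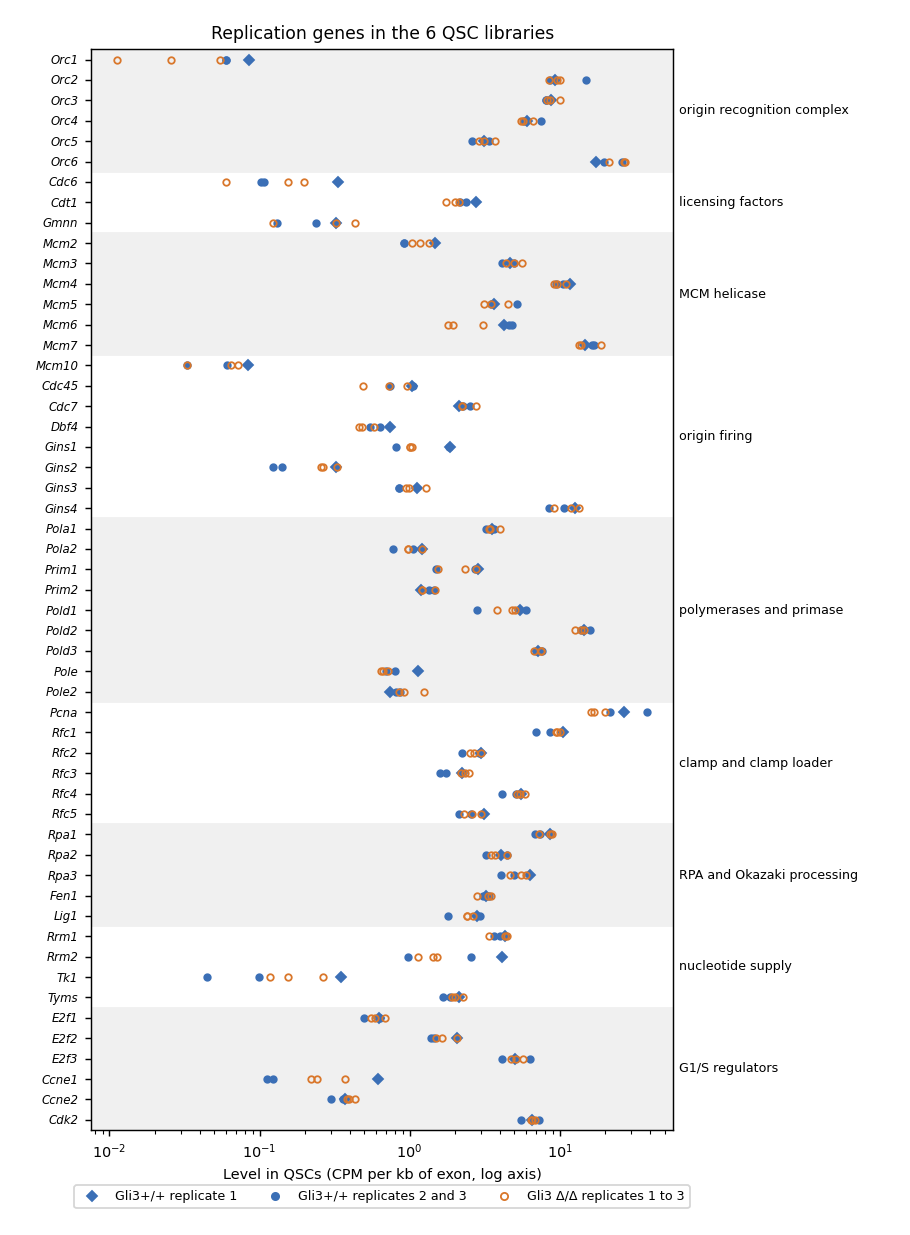
Level of each of the 53 replication genes in the 6 QSC libraries, in CPM per kb of exon on a log axis, grouped by role; each symbol is 1 library, filled for Gli3+/+ (diamond for replicate 1) and open for Gli3 Δ/Δ. *Orc1* and *Mcm10* lie below every other member of their groups in all 6 libraries, and *Mcm6* shows the 3 open symbols to the left of the 3 filled ones.

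The ORC had 1 scarce member and 5 well-expressed ones. *Orc6* stood at 43.2, 64.6 and 48.5 CPM in *Gli3*+/+ and at 67.8, 53.0 and 66.1 CPM in *Gli3* Δ/Δ libraries. *Orc3* stood at 52.9, 49.6 and 49.4 CPM against 61.3, 52.7 and 49.998 CPM. The genotypes overlapped for both. *Orc1*, the subunit that in mammals comes and goes with the cell cycle, was instead counted at 0.298, 0.207 and 0.209 CPM in *Gli3*+/+ and at 0.191, 0.090 and 0.039 CPM in *Gli3* Δ/Δ libraries. These values rest on 12, 14 and 9 counts against 10, 6 and 2 counts. Per kb, the lowest of the other subunits, *Orc5*, was at 3.14, against 0.050 for *Orc1*. Thus transcripts for 5 of the 6 subunits were present in QSCs, with the sixth near the limit of counting.

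The licensing factors that act on the ORC were low. *Cdt1* was the highest, at 8.74, 6.76 and 7.52 CPM in *Gli3*+/+ and 5.51, 6.28 and 6.69 CPM in *Gli3* Δ/Δ libraries. *Cdc6* was at 1.74, 0.534 and 0.557 CPM against 1.03, 0.313 and 0.806 CPM. *Gmnn*, which encodes geminin, was at 0.472, 0.193 and 0.348 CPM against 0.630, 0.179 and 0.472 CPM. For *Cdc6* the high value was that of *Gli3*+/+ replicate 1, without which the *Gli3*+/+ mean was 0.545 in place of 0.943 CPM.

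Most genes of the helicase that these factors load were higher per kb. *Mcm7* was at 65.1, 72.9 and 75.0 CPM in *Gli3*+/+ and 61.2, 59.97 and 82.9 CPM in *Gli3* Δ/Δ libraries. *Mcm4* was at 42.0, 37.5 and 33.7 CPM against 39.4, 32.8 and 34.5 CPM. In both genes the genotypes overlapped. The lowest of the 6 helicase genes per kb was *Mcm2* at 1.15, below the licensing factor gene *Cdt1* at 2.20. *Mcm7* shares 26.8% of its 31-base words with transcripts of other annotated genes, none of which is in the count table.

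Genes of origin firing spanned a wide range. *Gins4*, the highest per kb, was at 17.1, 14.5 and 11.4 CPM in *Gli3*+/+ and 16.0, 12.3 and 18.1 CPM in *Gli3* Δ/Δ libraries, followed by the kinase gene *Cdc7* at 8.96, 10.6 and 9.54 CPM against 11.6, 9.33 and 9.34 CPM. Its sister *Gins2* was at 1.32, 0.504 and 0.580 CPM against 1.34, 1.06 and 1.08 CPM, so the subunits of 1 complex differed widely: per kb, *Gins4* was at 11.0 and *Gins2* at 0.239. *Mcm10*, which helps start the fork, was at 0.646, 0.252 and 0.464 CPM in *Gli3*+/+ and 0.496, 0.254 and 0.551 CPM in *Gli3* Δ/Δ libraries. No firing gene separated the genotypes.

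Genes of the copying enzymes were counted in every library, but at unequal levels. Per kb, polymerase and primase genes ran from 14.2 for *Pold2* to 0.776 for *Pole*, below the 2.20 of *Cdt1*. Among polymerase and primase genes, *Pold3* was at 32.9, 35.2 and 31.9 CPM in *Gli3*+/+ and 34.3, 30.9 and 34.7 CPM in *Gli3* Δ/Δ libraries. *Pola1*, the catalytic subunit of the priming polymerase, was at 31.3, 28.3 and 32.3 CPM against 35.2, 30.1 and 30.0 CPM. Both genes varied little between libraries and overlapped between genotypes. *Rfc1*, the large subunit of the clamp loader, was at 63.3, 51.8 and 42.2 CPM against 58.1, 60.6 and 57.3 CPM. *Rpa1* was at 47.9, 41.0 and 38.5 CPM against 40.8, 48.2 and 49.9 CPM, and *Rpa2* at 12.2, 13.4 and 9.61 CPM against 11.0, 10.4 and 13.4 CPM. In *Gli3*+/+ replicate 3 each of *Rfc1*, *Rpa1* and *Rpa2* was at its lowest.

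Levels also differed among the nucleotide supply genes, from 4.03 CPM per kb for *Rrm1* through 1.97 for *Tyms* and 1.96 for *Rrm2* to 0.172 for *Tk1*. *Rrm1*, the large subunit of ribonucleotide reductase, was at 47.5, 44.2 and 40.3 CPM in *Gli3*+/+ and 47.9, 37.3 and 49.0 CPM in *Gli3* Δ/Δ libraries, and *Tyms*, thymidylate synthase, at 13.0, 10.2 and 11.3 CPM against 13.8, 12.2 and 11.6 CPM. The small subunit gene *Rrm2*, named after its values were seen, was at 11.4, 7.11 and 2.72 CPM against 3.99, 4.24 and 3.17 CPM. *Tk1*, thymidine kinase, was at 1.81, 0.519 and 0.232 CPM against 1.37, 0.806 and 0.610 CPM. *Rrm2* and *Tk1* were both highest in *Gli3*+/+ replicate 1. Without that library the *Gli3*+/+ mean of *Tk1* was 0.375 in place of 0.854 CPM, and that of *Rrm2* was 4.91 in place of 7.08 CPM.

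The G1/S regulators ranged from 6.52 CPM per kb for *Cdk2* to 0.281 for *Ccne1*. *Cdk2* was at 40.6, 45.4 and 34.4 CPM in *Gli3*+/+ and 40.4, 42.6 and 39.8 CPM in *Gli3* Δ/Δ libraries, and *E2f3* at 27.2, 22.5 and 34.2 CPM against 25.6, 30.96 and 27.6 CPM. Cyclin E, which activates CDK2, was scarce in both its forms. *Ccne1* was at 1.64, 0.296 and 0.325 CPM against 0.992, 0.642 and 0.590 CPM, and *Ccne2* at 1.29, 1.05 and 1.25 CPM against 1.51, 1.39 and 1.34 CPM. For *Ccne1* the *Gli3*+/+ mean fell from 0.753 to 0.311 CPM when replicate 1 was left out.

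Several of the scarce genes stood high in *Gli3*+/+ replicate 1. Among the 8 genes of lowest mean CPM (*Orc1*, *Gmnn*, *Mcm10*, *Ccne1*, *Cdc6*, *Tk1*, *Gins2* and *Ccne2*), 5 were highest in that library, with a median of 1.81 times the mean of the other 5 libraries. Among the other 45 genes, 13 were highest there and the median was 1.10 times. The split was not complete: *Ccne2*, among the 8, was at 0.99 times, and *Rrm2*, among the 45, was at 2.69 times. The cycling markers had a median of 2.62 times, the macrophage markers 3.19 times and the satellite cell markers 1.06 times. A level near 1 CPM in a bulk library does not say whether few cells hold much of a transcript or many cells hold little, and fewer cells of a type and less RNA per cell cannot be told apart.

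**Figure D2:**
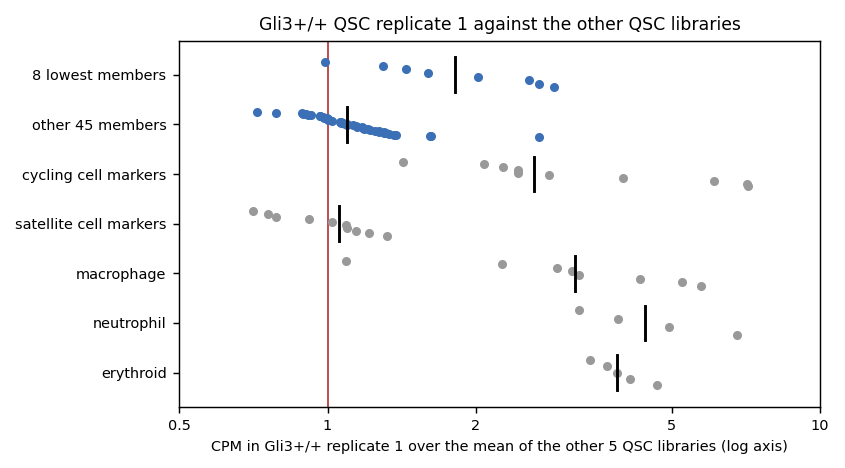
CPM in *Gli3*+/+ QSC replicate 1 divided by the mean of the other 5 QSC libraries, on a log axis; each point is 1 gene, black ticks are medians and the red line is equality. The 8 lowest replication genes have a median of 1.81, the other 45 a median of 1.10, and the cycling markers one of 2.62.

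The comparison of *Gli3* Δ/Δ with *Gli3*+/+ QSCs asks whether deletion of *Gli3* alters this program before injury. A gene was called where edgeR's adjusted p was below 0.05 and the fold change reached 1.2. No replication gene met this, while 88 of all 25093 genes did (0.351%). At an unadjusted p under 0.05 there were 2 of 53 genes, *Mcm6* and *Pcna*, against 7.11% of all genes. DESeq2 called 1 of the 53, *Mcm6* (1.53% of all genes), and limma-voom called 0 (0.291%). The log2 fold changes were positive for 28 and negative for 25 genes, with a median of 0.0064 against -0.031 over all genes, and 38 of the 53 were within 0.25 of 0. In simulated counts for these 6 libraries, 200 of 25093 genes were changed, all drawn from genes above 1 CPM. Of these, edgeR recovered 92% of changes of 4-fold and 39% of changes of 2-fold, and it called 12 unchanged genes. DESeq2 recovered 99% and 66% of them and called 59 unchanged genes. The rates do not cover the 7 replication genes below 1 CPM.

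**Figure D3:**
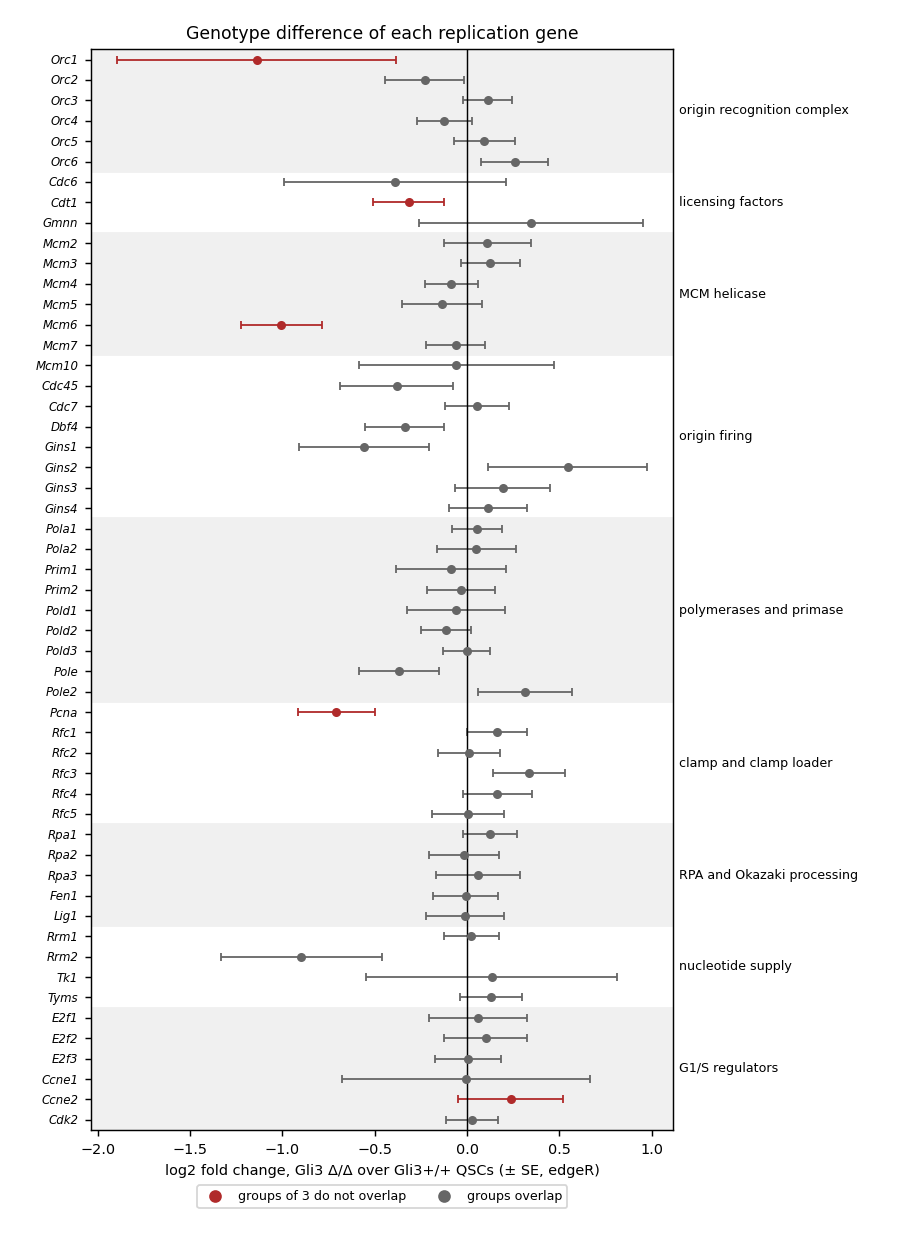
log2 fold change of each replication gene in *Gli3* Δ/Δ over *Gli3*+/+ QSCs with its SE from edgeR (n = 3 libraries each), by role; red points mark genes whose groups do not overlap. Points gather around 0, and *Mcm6* at -1.01 and *Pcna* at -0.71 lie farthest from it relative to their SE; no gene passed the test.

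In 5 of the 53 genes (9.43%) the 3 libraries of one genotype did not overlap with those of the other, against 13.0% of all genes. *Orc1*, *Cdt1*, *Mcm6* and *Pcna* were lower in *Gli3* Δ/Δ (background 6.57%) and *Ccne2* was higher (background 6.39%). In both directions together the share was below that of the whole table. The fold changes were -1.14 (SE 0.75) for *Orc1*, -0.32 (SE 0.19) for *Cdt1* and 0.24 (SE 0.28) for *Ccne2* on the log2 scale, and adjusted p-values from edgeR were 0.862, 0.843 and 0.927. For *Orc1* the counts are at most 14 in any library. Without *Gli3*+/+ replicate 1 the log2 fold change of *Cdt1* was -0.21, without *Gli3*+/+ replicate 2 that of *Ccne2* was 0.16, and without *Gli3* Δ/Δ replicate 1 that of *Orc1* was -1.82.

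*Mcm6* differed most among the helicase genes. The gene (ENSMUSG00000026355.11, GRCm38 chromosome 1, 128331590 to 128359664, minus strand) encodes 1 of the 6 subunits of the ring. It was counted at 19.9, 22.5 and 21.5 CPM in *Gli3*+/+ and at 8.45, 14.3 and 9.03 CPM in *Gli3* Δ/Δ libraries. All 3 *Gli3*+/+ libraries were above all 3 *Gli3* Δ/Δ libraries, and *Gli3* Δ/Δ replicate 2 was the nearest to them. The means were 21.3 ± 1.29 and 10.6 ± 3.24 CPM (SD, n = 3 each), a log2 fold change of -1.01 (SE 0.22) with an adjusted p of 0.153 from edgeR. The call depended on the test: the adjusted p was 0.00315 with DESeq2 and 0.0401 with edgeR without *Gli3* Δ/Δ replicate 2, where the log2 fold change was -1.29. Only 1.35% of the 31-base words of *Mcm6* occur in transcripts of another gene. The other 5 helicase genes had log2 fold changes from -0.14 (*Mcm5*) to 0.13 (*Mcm3*), and the genotypes overlapped in each. With 1 library left out, that of *Mcm5* ran from -0.31 without *Gli3* Δ/Δ replicate 1 to 0.066 without *Gli3*+/+ replicate 3, a change of sign, and was -0.22 without *Gli3*+/+ replicate 1. That of *Mcm3* ran from 0.029 without *Gli3* Δ/Δ replicate 3 to 0.21 without *Gli3* Δ/Δ replicate 2. Whether *Mcm6* differs from these other subunits was not tested.

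*Pcna* was the other gene at an unadjusted p under 0.05, and it shares sequence with a pseudogene. The gene (ENSMUSG00000027342.14, chromosome 2, 132249162 to 132253314, minus strand) was at 64.3, 52.3 and 91.6 CPM in *Gli3*+/+ and 47.9, 39.0 and 40.5 CPM in *Gli3* Δ/Δ libraries. The log2 fold change was -0.71 (SE 0.21, adjusted p = 0.400 from edgeR), with *Gli3*+/+ replicate 3 well above the rest, and -0.46 without that library. The pseudogene *Pcna-ps2* (ENSMUSG00000067608.4, chromosome 19, 9283380 to 9284160) shares 23.3% of the 31-base words of *Pcna*. It ran the other way, at 16.2, 12.2 and 3.57 CPM in *Gli3*+/+ and 30.0, 23.6 and 27.7 CPM in *Gli3* Δ/Δ libraries, and the groups did not overlap. Its log2 fold change was 1.35 (SE 0.44, adjusted p = 0.468 from edgeR). Added together, the 2 genes were at 80.5, 64.4 and 95.2 CPM against 77.8, 62.6 and 68.2 CPM. The sum overlapped between genotypes, with means of 80.0 ± 15.4 and 69.5 ± 7.69 CPM (SD, n = 3 each), a log2 ratio of means of -0.20. That ratio was -0.059 without *Gli3*+/+ replicate 3, where the *Gli3*+/+ mean was 72.5 CPM, and -0.34 without *Gli3*+/+ replicate 2. How reads were divided between *Pcna* and the pseudogene was not tested, and the values of each alone are given as uncertain.

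**Figure D4:**
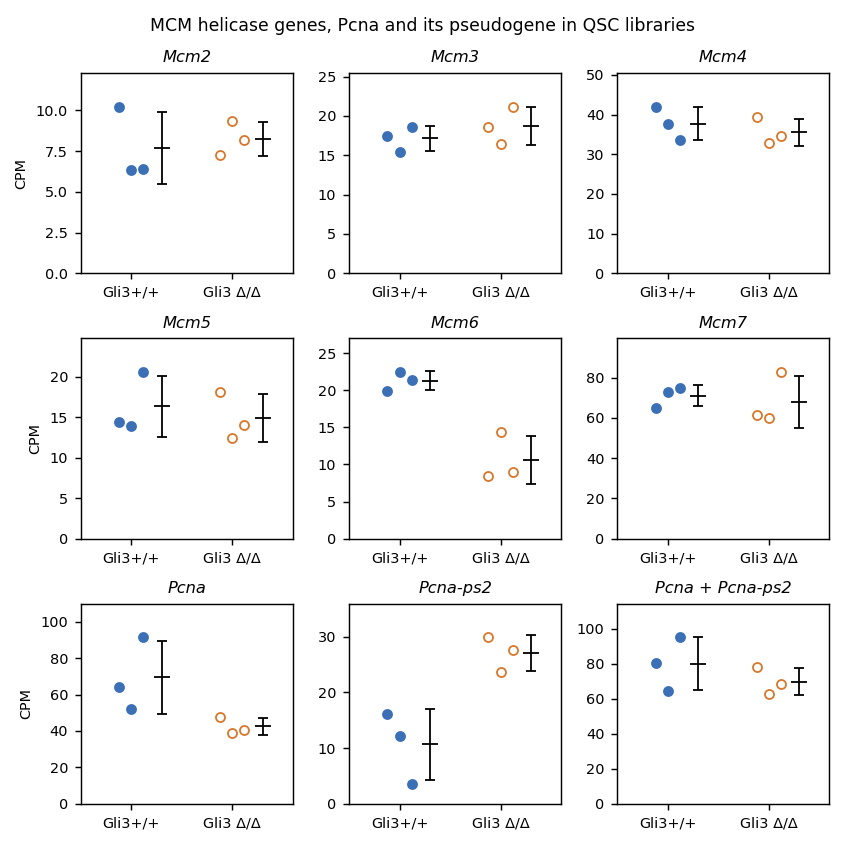
CPM in each QSC library (points; filled for *Gli3*+/+, open for *Gli3* Δ/Δ) with the mean and SD of 3 libraries beside them, for the 6 helicase genes, *Pcna*, its pseudogene *Pcna-ps2* and their sum. *Mcm6* separates the genotypes while the other helicase genes overlap, and the separation of *Pcna* is absent from the sum.

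Other shifts were within the spread. *Rrm2* had a log2 fold change of -0.90 (SE 0.44, adjusted p = 0.751 from edgeR), but the *Gli3*+/+ libraries themselves ranged from 2.72 to 11.4 CPM and the groups overlapped. Without *Gli3*+/+ replicate 1 it was -0.38. *Gins1* was at -0.56 (SE 0.35) and *Gins2* at 0.54 (SE 0.43) on the log2 scale, so the 2 subunits of the GINS complex leaned in opposite directions, neither past the test (adjusted p = 0.847 and 0.895 from edgeR). The value of *Gins2* was 1.10 without *Gli3*+/+ replicate 1 and 0.29 without *Gli3*+/+ replicate 2. Without *Gli3*+/+ replicate 3 it also fell, to between 0.29 and 0.54, and the value of *Gins1* was -0.85. By role, the median log2 fold change was -0.32 for the 3 licensing factors, -0.07 for the helicase, 0.09 for the clamp and its loader and between -0.03 and 0.08 for the other 6 groups.

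The same fit covers genes that work beside these 53. None of 30 other replication genes, 14 other nucleotide supply genes and 12 other E2F and pocket protein genes was called by edgeR. At an unadjusted p under 0.05 there were 1, 1 and 0 of them. Among the other replication genes 4 did not overlap and were higher in *Gli3* Δ/Δ QSCs, namely *Pole4*, *Mcm9*, *Rnaseh2b* and *Chaf1a*, and 0 were lower. They are 13.3% of the list, against 6.39% of all genes in that direction and 13.0% in either. *Pole4*, an accessory subunit of polymerase epsilon, was at 25.9, 23.1 and 24.1 CPM against 36.2, 30.4 and 34.5 CPM (log2 fold change 0.47, adjusted p = 0.396 from edgeR). *Dctd*, which makes the precursor of thymidylate, was at 24.4, 17.5 and 15.5 CPM against 26.8, 32.0 and 34.4 CPM (log2 fold change 0.70, adjusted p = 0.361 from edgeR). The CDK inhibitor gene *Cdkn1c* was also higher without overlap, at 22.3, 21.8 and 19.2 CPM against 25.9, 28.2 and 29.7 CPM (adjusted p = 0.512 from edgeR). The most abundant CDK inhibitor per kb, *Cdkn1a*, overlapped.

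Markers of other cells were also compared. The Schwann cell marker *Mbp*, a myelin gene, was at 29.35, 23.0 and 36.7 CPM in *Gli3*+/+ and 10.3, 19.5 and 17.3 CPM in *Gli3* Δ/Δ libraries (adjusted p = 0.375 from edgeR). *Sox10*, the defining factor of these cells, was at 4.27, 2.89 and 4.43 CPM against 1.26, 1.82 and 2.26 CPM, and was not at 0 in any library (adjusted p = 0.337 from edgeR). In both genes the *Gli3* Δ/Δ libraries were lower without overlap. The differentiation gene *Myog* was higher without overlap at 4.94, 2.61 and 6.31 CPM against 14.2, 9.67 and 9.05 CPM (adjusted p = 0.297 from edgeR). None of these 3 genes was called by edgeR, while the adjusted p from DESeq2 was 0.0465 for *Sox10* and 0.0171 for *Myog*. The part of Schwann or differentiating cells in the values of *Mcm6* and *Pcna* was not tested.

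The second comparison sets QSCs against the whole series, and asks which replication transcripts were more abundant outside QSCs. The authors' deposited mean per gene covers all libraries of the series, since the same column stands in all 4 of their tables. Divided by the mean of the 6 QSC libraries, both in CPM of their own totals, it gives 1 where ASC and QSC libraries were equal and 0.5 where a gene was absent from the ASC libraries. The 2 means were normalized separately and the authors' mean carries no replicates, so the ratio is a description with no test. Genes known to fall as satellite cells activate sat near the lower limit, *Calcr* at 0.50 and *Pax7* at 0.55, and the first percentile over genes above 5 CPM was 0.504.

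Replication genes stood well above it. Their median ratio was 3.46, against 0.989 over all genes, and 38 of the 53 were at 2 or more where 16.8% of all genes were. Of the 46 members at 1 CPM or more, 31 were at 2 or more, against 10.2% of all genes at that level. There were 10 genes at 10 or more (background 4.02%), and *Orc6* (0.976) and *Orc3* (0.990) were the only ones at or below 1. The summed level was 957 CPM in QSCs and 2847 CPM in the authors' mean over all libraries. The order by role differed from that of the levels. Nucleotide supply (median 23.0) and licensing (24.8) were at the top, G1/S regulators (8.94), helicase (6.32) and firing genes (6.21) were between, and the polymerases (2.51), clamp and loader (2.44), RPA and Okazaki processing (2.43) and ORC (1.277) were lowest.

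**Figure D5:**
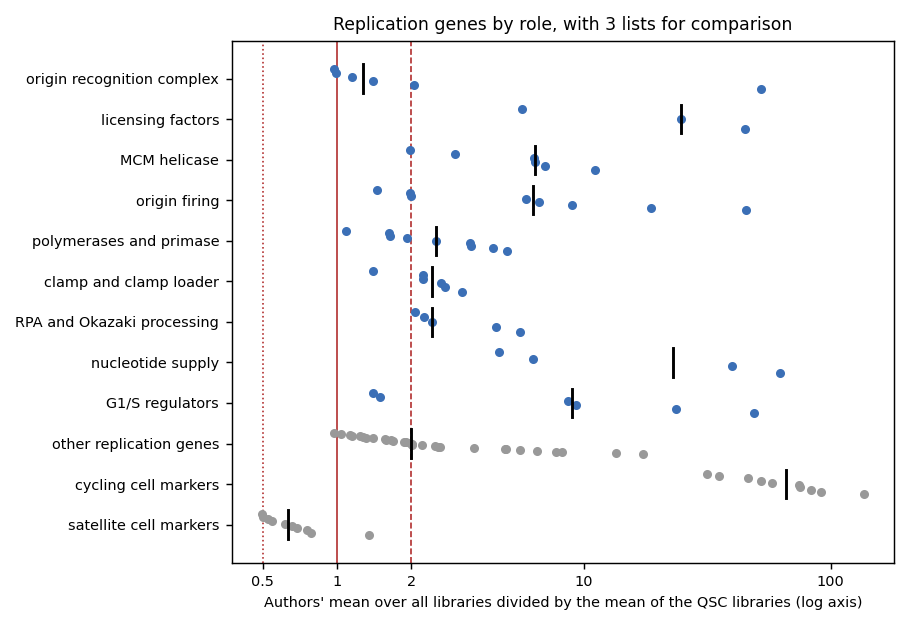
Authors' mean over all libraries divided by the mean of the 6 QSC libraries for each gene, on a log axis, by role; black ticks are medians and the red lines mark 0.5, 1 and 2. Licensing and nucleotide genes have medians of 24.8 and 23.0 and the ORC one of 1.277, beside 1.99 for 30 other replication genes, 65.9 for cycling markers and 0.635 for satellite cell markers.

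The genes that were scarce in QSCs had the largest ratios. *Tk1* had the highest, 62.1, with 0.902 CPM in QSCs and 56.0 CPM in the authors' mean. *Orc1* followed at 52.3, with 0.172 and 9.01 CPM, then *Ccne1* at 48.7, *Mcm10* at 45.4, *Gmnn* at 44.9, *Rrm2* at 39.7, *Cdc6* at 24.8, *Ccne2* at 23.6 and *Gins2* at 18.7. A low QSC value enters the ratio as its divisor, so a large ratio in these genes follows in part from how they were ranked. The 2 subunits of ribonucleotide reductase differed in this respect. *Rrm2* had 5.50 CPM in QSCs and 218 CPM in the authors' mean, and *Rrm1* had 44.4 and 201 CPM.

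Within complexes the ratios were uneven. In the ORC, *Orc2* was at 2.05 and *Orc1* at 52.3 while *Orc3*, *Orc4*, *Orc5* and *Orc6* were from 0.976 to 1.40. In the helicase, *Mcm2* was at 11.1, *Mcm3*, *Mcm5* and *Mcm6* were at 6.35, 6.29 and 6.95, *Mcm4* was at 3.00 and *Mcm7* at 1.97. *Mcm7* and *Mcm4*, the genes of the ring with the highest QSC levels per kb, had the lowest ratios, but the QSC level is the divisor here too. QSC means of the ring genes ran from 7.999 (*Mcm2*) to 69.5 CPM (*Mcm7*). The level implied for the other libraries, 2 times the authors' mean less the QSC mean, ran only from 169 (*Mcm2*) to 210 CPM (*Mcm3*). The uneven ratios of the helicase therefore mainly restate its QSC levels. In the GINS complex *Gins2* was at 18.7, *Gins1* at 5.84, *Gins3* at 1.97 and *Gins4* at 1.45. Regulators and enzymes were split as well. Among E2F genes *E2f1* was at 9.29 and *E2f2* at 8.59, and *E2f3* at 1.40. In polymerase delta *Pold1* and *Pold2* were at 1.64 and 1.62 and *Pold3* at 1.09, while the catalytic subunit gene of polymerase epsilon, *Pole*, was at 4.88.

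Other cells changed over the same axis. The 8 macrophage markers went from a summed 15.9 CPM in QSCs to 647 CPM in the authors' mean, with a median ratio of 67.5 and *Lyz2* the most abundant, and *Itgam* alone of them was at 0 in a QSC library. The cycling markers went from 17.1 to 1035 CPM. Satellite cell markers had a median ratio of 0.635, and the dissociation response one of 0.531. The sorts of both QSCs and ASCs gated against CD45 and CD11b, the products of *Ptprc* and *Itgam*, whose ratios were 36.3 and 58.5. The part of macrophages in the ratios of the replication genes was not tested.

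The windows around the start sites of these genes were then searched for the letters that E2F proteins are known to bind. RefSeq promoter windows (GRCm38.p6) of 300 bases, 250 before to 50 after the start, were at hand for 44 of the 53 genes. TTTCCCGC or TTTGGCGC, on either strand, stood in 16 of the 44 (36.4%), against 1.80% of 27025 genes. TTTCCCGC was found in 10 and TTTGGCGC in 7 of the 44 genes, with 1 gene holding both. The CCAAT box, on either strand, was in 26 of 44 (59.1%) against 41.1% of all. Below are stretches with up to 20 bases on either side of a match that lies wholly before the start, on the strand of the gene, with the match in capitals; they show *Mcm6*, which had the lowest p between genotypes, 2 of its partners in the ring, 1 gene each of high and of low ratio, and an E2F gene itself.
*Mcm6*, nearer match, chr1:128359725-128359772, minus strand: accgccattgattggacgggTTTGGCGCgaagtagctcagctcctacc
*Mcm6*, farther match, chr1:128359788-128359835, minus strand: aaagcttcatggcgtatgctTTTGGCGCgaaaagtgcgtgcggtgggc
*Mcm5*, chr8:75109340-75109387, plus strand: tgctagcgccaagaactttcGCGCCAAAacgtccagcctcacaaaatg
*Mcm7*, chr5:138172021-138172068, minus strand: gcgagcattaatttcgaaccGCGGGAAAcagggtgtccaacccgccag
*Cdc6*, chr11:98907993-98908040, plus strand: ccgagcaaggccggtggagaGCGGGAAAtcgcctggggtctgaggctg
*Orc3*, chr4:34614956-34615003, minus strand: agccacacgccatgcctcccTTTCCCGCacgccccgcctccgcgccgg
*E2f3*, chr13:29986064-29986094, minus strand: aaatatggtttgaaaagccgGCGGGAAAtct

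*Mcm6* was the only gene of the 44 with 2 such matches wholly before its start, 39 and 102 bases from it, and both read TTTGGCGC on the strand of the gene. In *Mcm5* the match was 141 bases and in *Mcm7* 157 bases before the start, both reading on the other strand. All these starts are those of the RefSeq windows. For *Mcm7* and *Cdc6* the GENCODE gene begins farther out, so their stretches lie inside the GENCODE gene span. The stretch of *E2f3* ends at the start site, 3 bases after its match. *Orc3*, with the letters 33 bases before its start, had a ratio of 0.990, and *Cdc6*, with them 130 bases before, one of 24.8. Over all 16 genes with the letters the median ratio was 2.59, from 0.990 to 24.8, with 8 at 2 or more. Over the 28 genes without them it was 3.47, from 0.976 to 62.1, with 22 at 2 or more. By median, genes with the letters did not have the larger ratios. Their median QSC level was 17.0 CPM, against 9.38 CPM without them, and the QSC level is the divisor of the ratio. Only exact copies of the 2 spellings were searched for, and the part of E2F proteins in these values was not tested. The median log2 fold change between genotypes in QSCs was 0.02 with the letters and 9.78e-05 without.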

How the data were processed

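Per the labels and the study's methods, polyadenylated RNA was sequenced on strand-specific libraries from 20 ng of RNA. The authors assigned reads to GRCm38 transcripts (GENCODE vM19) with salmon, summed them to genes with tximport and kept genes with 5 or more reads in 2 or more samples. They deposited estimated counts, not normalized, of which 49.2% of the QSC values were not whole; these were rounded. The deposited mean signal averages, over all their libraries, counts that the authors scaled by DESeq2 size factors. Their tables' fold changes and p-values were not used. The table has 12 count columns, and 6, of ASC libraries, match no label and were not used, so no comparison with ASC libraries was run.

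edgeR 4.0.16 (R 4.3.3, TMM, quasi-likelihood test, Benjamini-Hochberg over all 25093 genes) fitted the 6 QSC libraries, and called a gene where the adjusted p was below 0.05 and the fold change reached 1.2. DESeq2 1.42.0, voom with quality weights per sample (limma 3.58.1), other size factors and filters, the replicate number as a block and leaving out each library were alternatives. P-values measure the spread between libraries of pooled mice. GENCODE vM21, also on GRCm38, gave exonic lengths and positions (96.3% of identifiers carry the same version). Shared sequence was counted as 31-base words on the same strand. The members, lists and rules were chosen with earlier results of these data known. Values in every library were given for genes that did not overlap, the 2 of highest CPM in each role and the 8 of lowest CPM. Other genes were named where they did not overlap, were the most abundant of their list or checked the labels. Each test was tried on simulated counts with 200 of 25093 genes changed, drawn from genes above 1 CPM. The results of 2 marker genes are not reported here.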

Additional observations from a re-analysis of the deposited data

How the results depend on the processing

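The genotype difference in QSCs was called for 88 of all genes, for 384 with DESeq2, for 48 where at least 10 counts were required in every library, and for 58 to 103 when 1 library was left out (58 without *Gli3* Δ/Δ replicate 3). Of the replication genes 0 were called; *Mcm6* was the 1 called with DESeq2 and the 1 called without *Gli3* Δ/Δ replicate 2, so leaving out a library gave 0 to 1. The cause of these differences was not tested. limma-voom, DESeq2 size factors, filterByExpr and no minimum fold change left the count of replication genes called at 0. The median log2 fold change of the 53 genes stayed between -0.03 and 0.08, and among the genes whose log2 fold change is given, *Mcm5* alone changed sign, at -0.31 to 0.066 when 1 library was left out (0.066 without *Gli3*+/+ replicate 3). *Orc1* passed neither filter on low counts (52 of 53 genes did). Same-numbered libraries did not deviate together (correlations of -0.276, -0.0196 and -0.0642 between genotypes), and with a replicate block 79 genes and 0 replication genes were called. Alternatives for the ratio of the authors' mean to the QSC mean were chosen after seeing the data: rescaling, or leaving out each QSC library, gave 37 to 40 genes at 2 or more and medians of 3.22 to 3.598. Comparisons with ASC libraries were not run, since their columns match no label. Few counts limit *Orc1*, *Gmnn* and *Mcm10*, whose libraries hold at most 14, 33 and 28 counts.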
